A study of Rattus norvegicus with 18 samples.

Results

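Neuregulin 1, the ligands of the epidermal growth factor (EGF) family and the 4 ErbB receptors were followed in neonatal rat cardiomyocytes, the contractile cells of heart muscle, across 5 groups of samples. The 10 genes were chosen by name: the ligands Nrg1, Areg, Ereg, Hbegf, Btc and Tgfa and the receptors Egfr, Erbb2, Erbb3 and Erbb4. They are 10 of the 12198 genes to which at least 1 probe of either array design was assigned alone. Cells had been isolated from ventricles of 1-day-old rats (the labels give n = 24), purified on Percoll gradients and kept for 24 h in cardiac medium. The conditioned groups were then cultured in that medium diluted to 50% with stem cell conditioned hESC medium (medium of human embryonic stem cells), and the unconditioned groups with the same hESC medium that had not been conditioned, each for 24 h or 48 h. The time zero group was extracted before either dilution and had no treatment. Serum was held at 5% FBS and 10% HS in both media. No strain, sex, stem cell line or dish identifier was given.

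RNA was labelled with biotin and hybridised to 1-colour arrays of 2 designs, deposited as 2 tables that were kept apart here. The larger table holds 12 arrays, with 2 for each of the conditioned and unconditioned groups at 24 h and 48 h and 4 for time zero. The smaller table holds 6 arrays, with 1 per later group and 2 for time zero, and was not tested. The number of arrays limits the precision of every value. The labels do not say that arrays came from separate cultures, and p-values therefore reflect nothing beyond the scatter of these arrays, which may be technical. On 3 arrays of the larger table (replicates 4 and 5 of time zero, and replicate 2 of unconditioned medium at 48 h) the intensity range was narrow, with a ratio of upper to lower quartile of 22.4 to 25.7, against 38.7 to 47.8 on the other 9 arrays. None of these was a conditioned array. Time zero replicate 4 correlated more closely with unconditioned 48 h replicate 2 (0.909) than with any other time zero array (0.840 to 0.875). Some results for Areg and Erbb2 and some counts of calls are also given without the 3 narrow arrays. Other results are given only with them. In the smaller table both conditioned arrays had the narrowest range, with ratios of 16.6 and 16.3 against 27.2 to 54.1 on its other arrays. Medium and intensity range therefore cannot be told apart in that table. Of 14 cardiomyocyte marker genes 12 were on the larger array and all 12 passed the filter on low values, among them Tnnt2, cardiac troponin T, at an intensity of 15052 to 36744. Markers of other cell types were present too: all 9 endothelial markers on the array passed, and so did 5 of 7 leukocyte markers. Of these 5, Cd68, Cd14, Csf1r and Itgam were never at the floor and Cd74 was there on 3 of the 12 arrays. The leukocyte markers that did not pass were Ptprc, at the floor on 7 arrays, and Lyz2, at the floor on every array.

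Neuregulin 1 and the EGF-like ligands are made as membrane-anchored precursors. Metalloproteases such as ADAM17 release them, and they bind receptors of the ErbB family, which pair and phosphorylate each other to switch on the RAS-ERK and PI3K-AKT pathways. ErbB2 binds no known ligand and acts as the partner of the others, and ErbB3 has little kinase activity of its own. In the heart, neuregulin 1 comes mainly from endothelial cells and acts on ErbB2 and ErbB4 of the cardiomyocyte, a pair that is needed for trabeculation in the embryo and for the upkeep of the adult muscle.

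The promoters of the 2 members with the largest variation over the 5 groups, amphiregulin (Areg) and Erbb2, are shown because Areg was the one member called and Erbb2 ranked next by that variation. Each run is the 250 bases before the annotated gene start, from RefSeq on build GRCr8, and 7 of the 10 members had such a window (Nrg1, Erbb3 and Ereg did not). Areg lies on the minus strand at chr14:17265642-17265891 and Erbb2 on the plus strand at chr10:83907351-83907600. Capitals mark matches, on either strand, to 6 motifs searched: the cAMP response element (TGACGTCA), the TATA box (TATAAA), the GC box (GGGCGG), the CCAAT box (CCAAT), the AP-1 site (TGANTCA) and the E-box (CACGTG), none of which overlap in these 2 windows.
Areg: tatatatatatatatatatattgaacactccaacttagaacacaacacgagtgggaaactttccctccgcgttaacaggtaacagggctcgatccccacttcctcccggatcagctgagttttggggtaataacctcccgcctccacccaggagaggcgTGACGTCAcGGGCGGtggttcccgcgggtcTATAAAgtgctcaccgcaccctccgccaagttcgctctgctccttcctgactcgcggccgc
Erbb2: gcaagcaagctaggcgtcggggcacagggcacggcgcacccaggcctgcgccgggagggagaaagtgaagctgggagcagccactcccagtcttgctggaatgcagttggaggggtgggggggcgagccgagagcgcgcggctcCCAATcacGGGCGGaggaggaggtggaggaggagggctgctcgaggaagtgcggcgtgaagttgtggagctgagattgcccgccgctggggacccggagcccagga
The Areg window held a cAMP response element at -91, a letter match found in 1.59% of 33469 promoter windows, a GC box at -82 (30.5% of windows) and a TATA box at -61 (12.9%), each counted from the gene start. The Erbb2 window held a CCAAT box at -106 (34.0% of windows) and a GC box at -98. Neither held an AP-1 site (6.34% of windows) or an E-box (5.59%). These are letter matches only. In RefSeq's order of genes on chromosome 14, Btc, Areg, Ereg and Epgn lie next to each other.

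The larger table held 18 probes for the 10 genes, and 14 of them, for 9 genes, passed the filter (a mean log2 intensity above the 30th percentile, near an intensity of 16.5). Btc probe 108023, Egfr probes 314023 and 320096 and Erbb3 probe 137055 did not pass and were not tested. The smaller table held 10 probes for 8 genes, of which 3 passed (Areg 20911, Erbb2 21907 and Erbb4 21328). Intensities are linear and scaled to a common median per table, and a level is compared between groups for the same probe only.

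**Figure D1:**
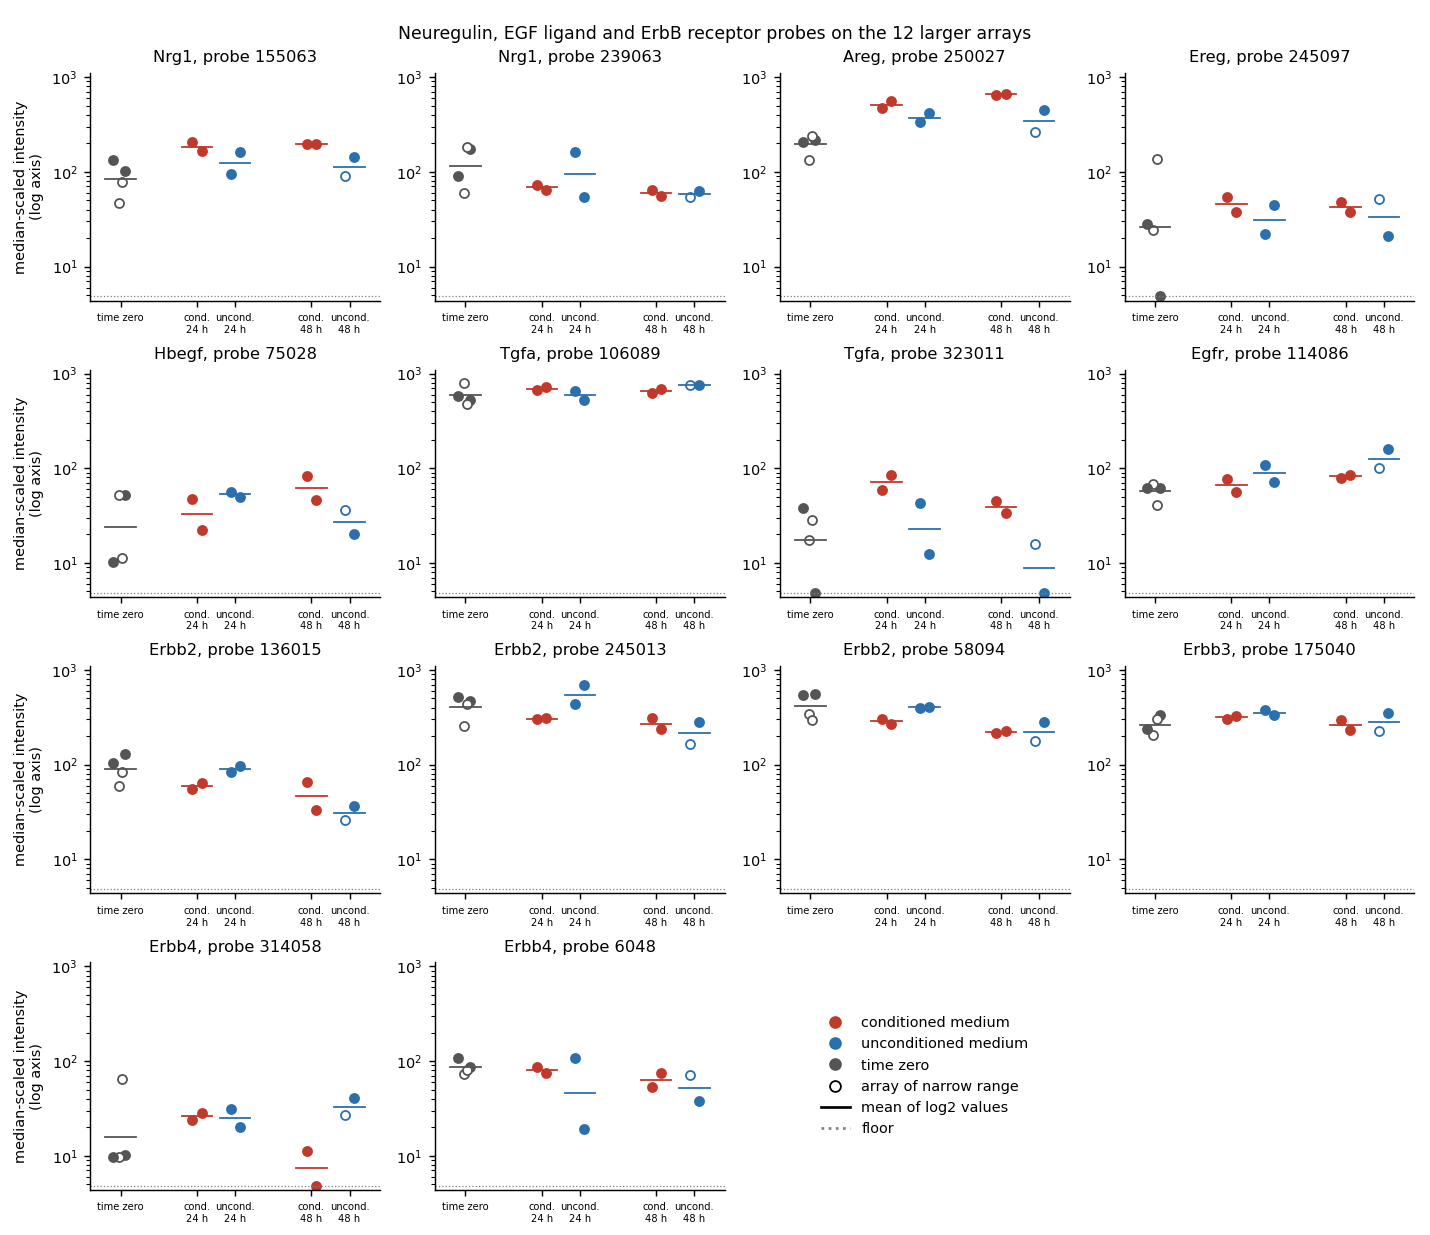
Median-scaled intensity (log axis) of the 14 tested probes on the 12 larger arrays, with time zero at the left and conditioned beside unconditioned medium at 24 h and at 48 h. Points are arrays, bars the mean of log2 values and open points the 3 arrays of narrow range; for Areg all 4 conditioned arrays (471 to 659.9) sit above all 4 time zero arrays (133 to 241).

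Areg, which encodes amphiregulin, a low-affinity ligand of the EGF receptor that is shed from the cell surface, was the one member called in any comparison. Its probe 250027 read 471 and 554 on the conditioned 24 h arrays, 655 and 659.9 on the conditioned 48 h arrays, 332 and 414 on the unconditioned 24 h arrays, 264 and 445 on the unconditioned 48 h arrays, and 217, 133, 241 and 209 at time zero. Every array of each later group was above every time zero array, and at each time both conditioned arrays were above both unconditioned ones. The means stood in the order conditioned 48 h (657 ± 3.60, SD, n = 2), conditioned 24 h (513 ± 58.1, n = 2), unconditioned 24 h (373 ± 57.3, n = 2), unconditioned 48 h (354 ± 128, n = 2) and time zero (200.0 ± 46.9, n = 4). The 2 unconditioned groups overlapped, and no other neighbours in that order did.

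Log2 changes are given ± SE after subtraction of the median over all kept probes of that comparison, while limma's p, adjusted over 23694 probes by Benjamini-Hochberg and called under 0.05, tests the change before that subtraction. The subtracted median was 0.18 for conditioned 24 h, 0.16 for conditioned 48 h, 0.19 for unconditioned 24 h and 0.01 for unconditioned 48 h against time zero, and 0.09 between the media with both times pooled. A positive median makes it easier for a probe shown as higher to pass than for one shown as lower. All 4 comparisons with time zero use the same 4 time zero arrays. In each of them time in culture and the dilution with hESC medium changed together and cannot be told apart.

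Areg rose 2.31-fold in conditioned medium at 24 h against time zero (log2 1.21 ± 0.32, limma adjusted p = 0.023) and 3.01-fold at 48 h (log2 1.59 ± 0.32, limma adjusted p = 0.00253). In unconditioned medium its log2 difference from time zero was 0.74 ± 0.32 at 24 h (limma adjusted p = 0.279) and 0.80 ± 0.32 at 48 h (limma adjusted p = 0.252), and neither passed. Without the 3 narrow arrays the 48 h value in unconditioned medium did pass, at 1.07 (adjusted p = 0.0199), with 1 array left in that group. Areg was thus 1 of 14 member probes called at each conditioned time, where 3.17% of all probes were called at 24 h and 6.47% at 48 h, and 0 of 14 were called in unconditioned medium, against 0.815% of all probes at 24 h and 2.9% at 48 h. At an unadjusted p under 0.05 the member counts were 3 and 3 in conditioned and 1 and 5 in unconditioned medium at 24 h and 48 h. Over all 23694 probes that count was 3628 and 4575 in conditioned and 2341 and 3187 in unconditioned medium. Member probes whose arrays did not overlap time zero numbered 3 higher and 0 lower in conditioned medium at 24 h (19.3% and 5.97% of all probes) and 3 and 1 at 48 h (22.4% and 7.44%). In unconditioned medium they numbered 2 and 0 at 24 h (13% and 3.22%) and 2 and 3 at 48 h (8.28% and 6.29%). In bulk RNA, fewer cells of a type and less RNA per cell cannot be told apart. Leaving out conditioned 24 h replicate 2 or 3 ended the call at 24 h (adjusted p = 0.201 and 0.386), and leaving out conditioned 48 h replicate 2 or 3 ended that at 48 h (adjusted p = 0.0612 and 0.0674), with 1 conditioned array then left in the group and assumed to vary like the others.

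Between the media, Areg was higher in conditioned than in unconditioned medium on all 4 arrays against all 4, by log2 0.62 ± 0.26 over both times (1.53-fold), and this did not pass (limma adjusted p = 0.299). The difference was 0.45 ± 0.37 at 24 h and 0.76 ± 0.37 at 48 h, and the change of the medium effect between the times was 0.30 ± 0.53, none of which passed. Only without the 3 narrow arrays and with quantile normalization together did the medium effect on Areg pass, at 0.54 (adjusted p = 0.0328). On the smaller arrays Areg probe 20911 read 329 in conditioned medium at 24 h and 326 at 48 h, 181 in unconditioned medium at 24 h and 235 at 48 h, and 142 and 65.0 at time zero. Both conditioned arrays there were above both unconditioned ones, and those above both time zero arrays. The conditioned arrays were also the narrowest in range of that table, with quartile ratios of 16.6 and 16.3 against 27.2 to 54.1. Medium and range cannot be told apart there, and the smaller table was not tested.

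**Figure D2:**
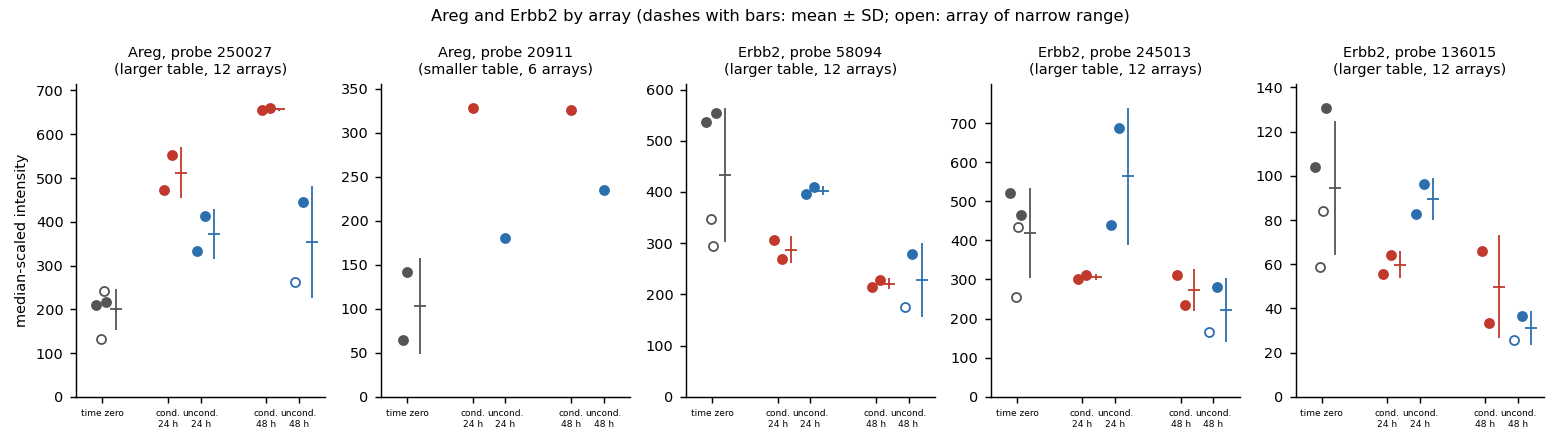
Median-scaled intensity (linear axis from 0) of Areg in both tables and of the 3 Erbb2 probes of the larger table. Points are arrays (open: narrow range) and dashes with bars are mean ± SD where a group has over 1 array; Areg is highest in conditioned medium at 48 h in the larger table (657 ± 3.60), and Erbb2 probe 58094 lies at 214 to 229 there against 295 to 554 at time zero.

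Nrg1, the neuregulin 1 gene, had 2 tested probes that did not move together over the 12 arrays (Pearson r = -0.35). Probe 155063 read 205 and 167 in conditioned medium at 24 h, 196 and 195 at 48 h, 95.0 and 160.3 in unconditioned medium at 24 h, 90.2 and 142 at 48 h, and 103, 46.7, 77.9 and 134 at time zero. All 4 conditioned arrays were above all unconditioned and all time zero arrays, while unconditioned medium overlapped time zero. The log2 difference from time zero was 0.95 ± 0.42 in conditioned medium at 24 h (limma adjusted p = 0.172) and 1.05 ± 0.42 at 48 h (limma adjusted p = 0.0968), and the media with both times pooled differed by 0.60 ± 0.34 (limma adjusted p = 0.486). None passed, except that the 48 h difference did without time zero replicate 6 (1.20, adjusted p = 0.0376).

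Nrg1 probe 239063 went the other way, with 73.5 and 65.1 in conditioned medium at 24 h, 64.2 and 55.1 at 48 h, 162 and 54.6 in unconditioned medium at 24 h, 54.1 and 63.3 at 48 h, and 175, 60.2, 185 and 90.9 at time zero. Every later group overlapped time zero, where replicate 4 was the lowest array. Its log2 difference from time zero was -0.92 ± 0.51 in conditioned medium at 24 h and -1.12 ± 0.51 at 48 h, neither of which passed. The gene encodes many isoforms, and which of them each probe reads was not determined here. The smaller table's Nrg1 probe 22338 reached 13.0 on 1 array and was below that table's floor of 14.4 on all 6.

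None of the other ligands was called in any comparison. Tgfa, transforming growth factor alpha, a ligand of the EGF receptor, read 674 and 715 in conditioned medium at 24 h, 629 and 683 at 48 h, 659.6 and 526 in unconditioned medium at 24 h, 750.1 and 749 at 48 h, and 530.5, 800.2, 479 and 585 at time zero with probe 106089. Its largest log2 difference from time zero in the 4 comparisons was 0.34 ± 0.29, in unconditioned medium at 48 h. The dimmer Tgfa probe 323011 read 59.5 and 84.3 in conditioned medium at 24 h and 45.3 and 34.1 at 48 h, 43.1 and 12.3 in unconditioned medium at 24 h and 15.8 and 3.18 at 48 h, and 3.15, 17.6, 28.4 and 38.1 at time zero. Conditioned was above unconditioned medium at each time, by log2 1.81 ± 0.78 over both times (limma adjusted p = 0.362), a value that depends on the floor of 4.84 set for the lowest arrays. The Tgfa probe of the smaller table, 1409, read 28.7 and 37.2 in conditioned, 24.5 and 16.8 in unconditioned medium at 24 h and 48 h, and 29.4 and 23.9 at time zero, too low to pass its filter.

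Hbegf encodes heparin-binding EGF-like growth factor, a ligand of the EGF receptor and of ErbB4. Its probe 75028 read 47.5 and 22.4 in conditioned medium at 24 h, 83.4 and 45.8 at 48 h, 56.5 and 49.6 in unconditioned medium at 24 h, 35.9 and 20.4 at 48 h, and 52.5, 52.7, 11.3 and 10.2 at time zero. Time zero split into a higher and a lower pair, each with 1 narrow array, and every later group overlapped it. Conditioned against unconditioned medium gave log2 -0.71 ± 0.91 at 24 h and 1.01 ± 0.91 at 48 h, with a difference between the times of 1.71 ± 1.28 that did not pass (limma adjusted p = 1.00).

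Ereg, which encodes epiregulin, a ligand of the EGF receptor and ErbB4, read 54.0 and 37.8 in conditioned medium at 24 h, 48.5 and 38.0 at 48 h, 21.9 and 44.3 in unconditioned medium at 24 h, 52.2 and 21.1 at 48 h, and values at the floor, 24.3, 137 and 28.3 at time zero. Time zero held both its lowest and its highest array, and its largest log2 difference from time zero was 0.62 ± 0.96. On the smaller arrays Ereg was below the floor on all 6. Btc, betacellulin, another ligand of the EGF receptor and ErbB4, lay between the floor and 36.6 on the 12 arrays and was not tested.

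Among the receptors, Erbb2 was measured by 3 tested probes that moved together over the 12 arrays (Pearson r of 0.80 to 0.89, a description of arrays that share a table and a scaling). Erbb2 encodes the ligandless partner receptor. Probe 58094 read 306 and 268 in conditioned medium at 24 h, 214 and 229 at 48 h, 397 and 409 in unconditioned medium at 24 h, 176 and 279 at 48 h, and 554, 346, 295 and 538 at time zero. All 4 arrays at 48 h were below all 4 time zero arrays, while at 24 h both media overlapped time zero. At time zero the 2 narrow arrays, 346 and 295, were the lower ones.

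Probe 245013 of Erbb2 read 301 and 311 in conditioned medium at 24 h, 310.4 and 236 at 48 h, 439 and 688 in unconditioned medium at 24 h, 165 and 279.8 at 48 h, and 465, 256, 434 and 522 at time zero. The narrow time zero replicate 4, at 256, is what overlapped with the 48 h arrays. Probe 136015 read 55.5 and 64.2 in conditioned medium at 24 h, 66.2 and 33.3 at 48 h, 82.7 and 96.3 in unconditioned medium at 24 h, 25.9 and 36.7 at 48 h, and 131, 58.9, 84.3 and 104 at time zero. Unconditioned medium at 48 h was again below every time zero array, and conditioned medium at 48 h overlapped time zero replicate 4.

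Against time zero, the log2 differences of Erbb2 at 48 h were -1.08 ± 0.33, -0.75 ± 0.35 and -1.11 ± 0.47 in conditioned medium for probes 58094, 245013 and 136015, with limma adjusted p = 0.114, 0.404 and 0.287. In unconditioned medium at 48 h they were -0.92 ± 0.33, -0.93 ± 0.35 and -1.57 ± 0.47, with limma adjusted p = 0.186, 0.222 and 0.0983. At 24 h they ran from -0.79 to -0.59 in conditioned and from -0.24 to 0.25 in unconditioned medium. None of these 12 values passed as reported. Probe 58094 did pass at 48 h with quantile normalization, at -1.07 (adjusted p = 0.00687) in conditioned and -0.96 (adjusted p = 0.0139) in unconditioned medium, and in 4 of 20 alternatives for each. Without the 3 narrow arrays all 3 Erbb2 probes passed in conditioned medium at 48 h (-1.27, -0.83 and -1.27 for 58094, 245013 and 136015), which with Areg made 4 of 14 member probes. In that setting the calls over all 23694 probes numbered 4106, against 1532 with all arrays. Probe 58094 then passed in conditioned medium at 24 h too (-0.91, adjusted p = 0.00826) and in unconditioned medium at 48 h (-0.96, adjusted p = 0.0261).

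At 24 h both conditioned arrays lay below both unconditioned ones for all 3 Erbb2 probes, by -0.50 ± 0.38, -0.85 ± 0.40 and -0.59 ± 0.55 for 58094, 245013 and 136015. None passed (limma adjusted p = 1.00, 0.949 and 1.00). Of the 14 member probes 5 did not overlap with conditioned lower and 4 with conditioned higher at 24 h, and with 2 arrays against 2 so did 22.4% and 24.1% of all probes. At 48 h the counts were 3 lower and 4 higher, against 11.6% and 29.9% of all probes. At 48 h the same probes stood at -0.18, 0.15 and 0.43 and overlapped. The change of the medium effect between the times was 0.30 ± 0.54, 0.99 ± 0.57 and 1.01 ± 0.77, and none passed. Of the 2 Erbb2 probes of the smaller table, 21907 read 125 and 51.9 in conditioned and 119 and 67.6 in unconditioned medium at 24 h and 48 h, against 159.8 and 54.9 at time zero. Its conditioned 48 h array was below both time zero arrays, and its other later arrays lay between them. Probe 12443, which did not pass the filter, read 53.8 and 30.1 in conditioned medium and 50.0 and a value at the floor in unconditioned medium, against 77.5 and 63.3 at time zero. There every later array was below both time zero arrays.

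**Figure D3:**
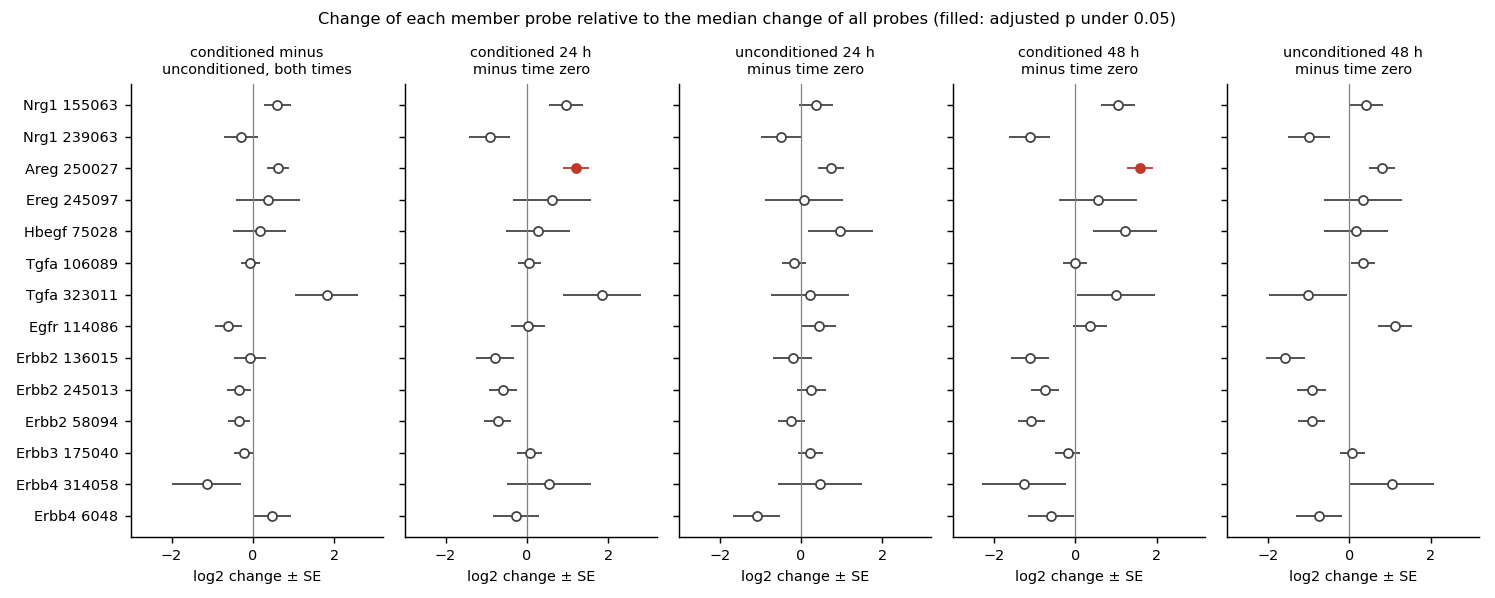
Log2 change ± SE of each of the 14 tested probes in 5 comparisons, with the all-probe median subtracted, with filled points for a limma adjusted p under 0.05. Only Areg in conditioned medium against time zero is filled (1.21 ± 0.32 at 24 h and 1.59 ± 0.32 at 48 h), and the 3 Erbb2 probes lie left of 0 in both media at 48 h.

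Egfr, the EGF receptor itself, read 77.1 and 56.4 in conditioned medium at 24 h, 79.3 and 85.7 at 48 h, 109 and 72.2 in unconditioned medium at 24 h, 101 and 158 at 48 h, and 61.4, 68.9, 40.6 and 61.6 at time zero with its tested probe 114086. Arrays of both media at 48 h, and of unconditioned medium at 24 h, were above all time zero arrays. The log2 difference from time zero was largest in unconditioned medium at 48 h, 1.13 ± 0.42 (limma adjusted p = 0.189), and was 0.37 ± 0.42 in conditioned medium at 48 h. With both times pooled, conditioned minus unconditioned medium gave -0.60 ± 0.34 (limma adjusted p = 0.643). The untested probes 314023 and 320096 were at the floor on 6 and 4 of the 12 arrays, and the smaller table's probe 22216 was below the floor on all 6.

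Erbb3, the receptor of low kinase activity, was not called in any comparison. Its probe 175040 read 304 and 326 in conditioned medium at 24 h, 295 and 232 at 48 h, 374 and 331 in unconditioned medium at 24 h, 226 and 351 at 48 h, and 331, 206, 300.3 and 239 at time zero. Its 4 log2 differences from time zero lay between -0.18 and 0.22, within their SE of 0.31. The second probe, 137055, was at or below 44.1 on all 12 arrays and did not pass the filter.

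Erbb4, the receptor through which neuregulin 1 acts with ErbB2 in cardiomyocytes, read 86.0 and 74.9 in conditioned medium at 24 h, 53.3 and 74.6 at 48 h, 109 and 19.1 in unconditioned medium at 24 h, 70.7 and 37.7 at 48 h, and 86.1, 72.1, 81.0 and 106 at time zero with probe 6048. Both unconditioned 48 h arrays were below every time zero array, and the other later groups overlapped time zero. The 4 log2 differences lay between -1.10 and -0.27 with an SE of 0.57, and none passed. Probe 314058 was near the filter, with 23.8 and 28.4 in conditioned medium at 24 h, 11.1 and 1.23 at 48 h, 31.1 and 19.9 in unconditioned medium at 24 h, 26.7 and 40.7 at 48 h, and 10.1, 9.69, 64.7 and 9.69 at time zero. The 2 probes did not move together (Pearson r = -0.11).

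On the smaller arrays the Erbb4 probe 12944, which did not pass that table's filter, read 169.9 and 137 in conditioned medium at 24 h and 48 h, 22.8 and 43.7 in unconditioned medium, and 7.93 and 3.07 at time zero. Probe 21328, which passed, read 155 and 63.7 in conditioned medium, 61.5 and 56.1 in unconditioned medium, and 116 and 32.1 at time zero. Both probes were higher in conditioned than in unconditioned medium at each time, while only 12944 had all later arrays above both time zero arrays. The conditioned arrays were also the narrowest in range of the smaller table, with quartile ratios of 16.6 and 16.3 against 27.2 to 54.1. Medium and range cannot be told apart there. Neither Erbb4 probe of the larger arrays separated the media at both times, and the smaller table was not tested. At 48 h probe 314058 of the larger arrays went the other way, with both conditioned arrays below both unconditioned ones. Its log2 difference there was -2.34 ± 1.19 (limma adjusted p = 0.651), a value that depends on the floor. Probe 6048 stood at 0.11 ± 0.66 at 48 h, and its arrays overlapped.

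Over the members as a set, conditioned against unconditioned medium called 0 of 14 probes over both times, against 0.92% of all probes, and 0 of 14 at 24 h and at 48 h, against 0.245% and 0.148%. At an unadjusted p under 0.05 the counts were 2, 0 and 1 of 14, against 2595, 1254 and 2060 of 23694 probes. The member median was -0.07 over both times, with all probes at 0 by construction. Areg and Nrg1 probe 155063 were the 2 of 14 whose 4 conditioned arrays did not overlap the 4 unconditioned ones with conditioned higher, against 8.63% of all probes, and 0 of 14 did so with conditioned lower, against 2.78%. Between 48 h and 24 h over both media 0 of 14 were called, against 0.0211% of all probes (3 of 14 at an unadjusted p under 0.05, the 3 Erbb2 probes, at -0.85 to -0.53, against 1152 of 23694). The difference of the medium effect between the times called 0 of 14, against 0% of all probes (0 of 14 at an unadjusted p under 0.05, against 518 of 23694).

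Ranked by limma's moderated F over the 5 groups, Areg stood at the 97.5th percentile of all probes, Erbb2 (probe 245013) at the 88.6th and Nrg1 (probe 155063) at the 85.3rd. For Erbb2 and Nrg1 the tested probe with the largest F was taken, which favours a high percentile. The genes whose log2 values were most like those of Areg over the 12 arrays were Gfpt2 (r = 0.99), Pik3cd (r = 0.98) and Man1a2 (r = 0.98). For Erbb2 they were Stmp1 (0.95), Herpud1 (0.94) and Natd1 (0.92), and for Nrg1 probe 155063 they were Itgb3bp, Ift22 and Tlcd1 (each 0.98). These coefficients describe 12 arrays that share one scaling and the same group means, and were picked as the highest of all probes assigned to 1 gene. Pik3cd, the delta catalytic subunit of PI3-kinase, averaged 1073 ± 189.7 (SD) in conditioned medium at 24 h and 1209.8 ± 82.0 at 48 h, 543 ± 102 in unconditioned medium at 24 h and 506 ± 189.7 at 48 h (n = 2 each), and 209 ± 56.2 at time zero (n = 4).

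Genes around the receptors were read from 6 lists of 94 genes, of which 77 were on the array and 69 were tested with 1 probe each. That probe was the brightest kept one of the gene, whereas shares of all probes also count dimmer probes and probes without an assigned gene. In conditioned medium against time zero 14 rose and 1 fell at 24 h and 15 rose and 1 fell at 48 h, and in unconditioned medium 7 and 5 rose and 0 fell. Of all probes, 3.17% and 6.47% were called in either direction in conditioned and 0.815% and 2.9% in unconditioned medium at 24 h and 48 h. The lists were chosen with earlier results of these data known. Between the media 0 were called, whether the times were pooled or taken singly, against 0.92% (pooled), 0.245% (24 h) and 0.148% (48 h) of all probes. The median over the 69 genes stayed between 0.18 and 0.27 in the 4 comparisons with time zero. Without the 3 narrow arrays the counts were 17 higher and 3 lower at 24 h and 18 and 3 at 48 h in conditioned medium, 10 and 1 and 10 and 2 in unconditioned medium, and 3 higher and 4 lower between the media over both times. Calls over all probes rose in that setting too, as the closing paragraph gives.

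One of the 6 lists, with 14 of the 69 tested genes, holds genes known to respond to ERK, the kinase at the end of the RAS pathway. Among the calls with all arrays, 10 of its genes rose in conditioned medium at 24 h and 10 at 48 h, and 5 and 2 in unconditioned medium, with list medians of 1.30, 1.43, 1.21 and 0.99. In the same order 3.17%, 6.47%, 0.815% and 2.9% of all probes were called in either direction. The list holds the brightest probe of each gene, and all probes are in this respect an unlike set. Egr1, an immediate early transcription factor, read 7256 and 9994 in conditioned medium at 24 h, 7400.4 and 9229 at 48 h, 6222 and 6554 in unconditioned medium at 24 h, 3728 and 6072 at 48 h, and 2779, 1476, 1144 and 2524 at time zero. Every later array was above every time zero array, and the log2 change in conditioned medium was 2.02 ± 0.37 at 24 h and 1.99 ± 0.37 at 48 h (limma adjusted p = 0.00196 and 0.00141). Etv4, an ETS transcription factor, and Phlda1, a small protein induced by growth factors, rose in all 4 comparisons, by 1.77 to 2.09 and by 1.61 to 1.77. Dusp5, a phosphatase that inactivates ERK, rose in conditioned medium at both times (1.85 and 1.49) and in unconditioned medium at 24 h (1.54), and Fosl1, an AP-1 subunit, in conditioned medium (1.48 and 1.62). With quantile normalization 10 and 9 of the 14 passed in unconditioned medium at 24 h and 48 h, so the count there depends on the scaling. Whether the media differ in these genes is a separate test, in which 0 of 14 passed over both times, with a list median of 0.28.

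Among 17 tested genes of receptor feedback, trafficking and degradation, Errfi1 and Sh3kbp1 were called. Errfi1 encodes MIG6, which binds and inhibits the kinase domains of ErbB receptors. It read 2456 and 2752 in conditioned medium at 24 h, 3917 and 3747 at 48 h, 1946 and 2759.9 in unconditioned medium at 24 h, 1841 and 2627 at 48 h, and 796, 566, 461 and 928 at time zero. It rose in all 4 comparisons, by 1.79, 2.37, 1.62 and 1.72 ± 0.33 in the same order of groups (limma adjusted p = 0.00184, 0.000104, 0.0103 and 0.00628). Sh3kbp1 encodes CIN85, an adaptor of Cbl in receptor endocytosis, and fell by 1.58 and 1.54 ± 0.37 on the log2 scale in conditioned medium at 24 h and 48 h (limma adjusted p = 0.0457 and 0.0309). Its values were 3901 and 4329, then 4034 and 4310.1 in conditioned medium, 8315 and 9561, then 4924 and 8752 in unconditioned medium, and 16097, 7028, 8196 and 14696 at time zero. Conditioned medium was below every other array, and the 2 narrow time zero arrays were the lower ones of their group.

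Of 11 tested sheddases and ligand-processing genes, Timp3 alone was called. It encodes an inhibitor of metalloproteases, ADAM17 included. It read 905 and 953 in conditioned medium at 24 h, 744 and 1033 at 48 h, 445 and 531 in unconditioned medium at 24 h, 322 and 611 at 48 h, and 92.1, 48.9, 113 and 202 at time zero. It rose in all 4 comparisons, by 3.02, 2.96, 2.08 and 2.13 ± 0.43 (limma adjusted p = 0.000253, 0.000198, 0.0149 and 0.00952). Adam17, the main sheddase of amphiregulin, differed from time zero at 48 h by -0.13 ± 0.30 in conditioned and -0.61 ± 0.30 in unconditioned medium, and Adam10 by -0.13 ± 0.30 and -0.33 ± 0.30. Neither passed.

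Among 5 surface proteins that hold or present ligands, Cd44, which presents heparin-binding EGF-like growth factor, and Sdc4, a heparan sulphate proteoglycan, rose in conditioned medium at both times (1.38 and 1.91, and 1.74 and 1.68), Cd9, a tetraspanin that binds the same growth factor's precursor, at 48 h (1.32 ± 0.33), and Cd44 also in unconditioned medium at 48 h (1.38 ± 0.30). Of 21 tested adaptors and kinases 0 were called in any of the 4 comparisons with time zero, with a median of 0.27 in unconditioned medium at 48 h and 0.13 in conditioned medium at 24 h. Nrg4, the 1 tested gene of 5 further ligands, stood at -0.21 ± 0.61 in conditioned and 0.22 ± 0.61 in unconditioned medium at 48 h.

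**Figure D4:**
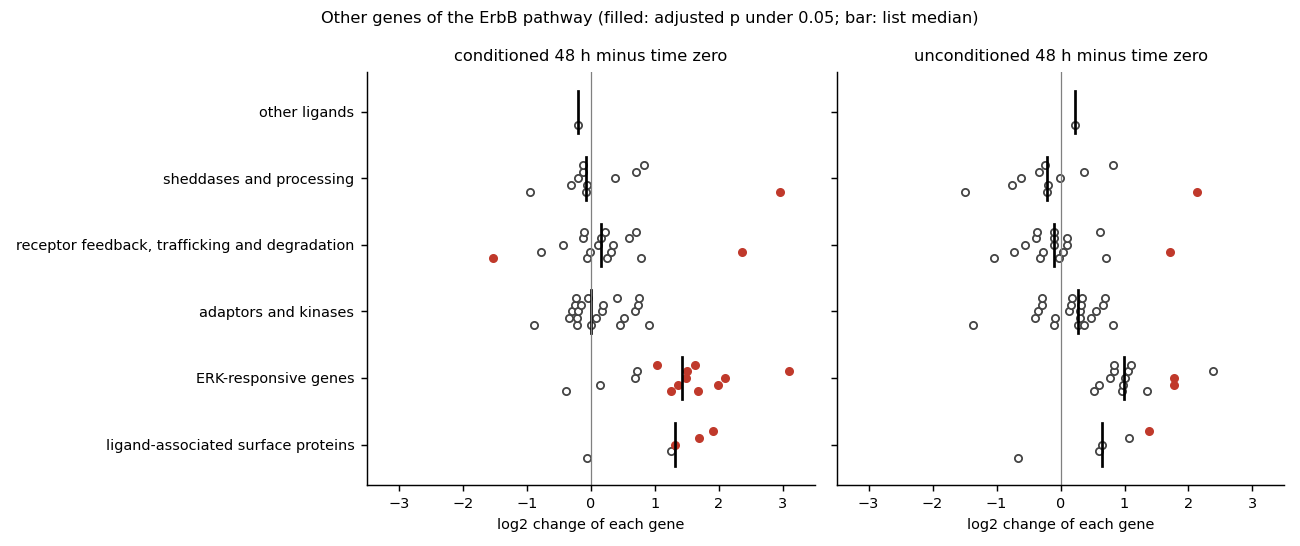
Log2 change of the 69 tested genes of 6 ErbB-related lists against time zero at 48 h, with the all-probe median subtracted, with conditioned medium left and unconditioned medium right. Each circle is a gene (filled: limma adjusted p under 0.05) and each bar a list's median. The ERK-responsive list has 10 filled circles and a median of 1.43 in conditioned medium, against 2 and 0.99 in unconditioned medium. Over all probes 6.47% and 2.9% passed.

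Markers of other cell types also differed from time zero. Between 48 h and 24 h over both media no tested marker of any list was called. Against time zero, 3.17% and 6.47% of all probes were called in either direction in conditioned and 0.815% and 2.9% in unconditioned medium at 24 h and 48 h. Of 9 tested endothelial markers 7 rose and 1, Kdr, fell in conditioned medium at 48 h, and 6 rose and 1 fell in unconditioned medium at 48 h, with 2 higher in each medium at 24 h. The summed intensity of the 9 was 2574 to 2643 in conditioned medium at 24 h, 3899.8 to 4139 at 48 h, 2317 to 2927 in unconditioned medium at 24 h and 2941 to 4656 at 48 h, against 1382 to 2049 at time zero. Of 4 tested fibroblast markers 1 rose in conditioned and 3 in unconditioned medium at 48 h, with a summed level of 5459.6 to 6241 and 6275 to 10839.7, against 2342 to 4213 at time zero, while the fibroblast markers Dcn, Lum and Pdgfra were at the floor on 4, 7 and 8 of the 12 arrays. Of 5 tested smooth muscle markers 3 rose at 48 h in each medium. Cardiomyocyte markers summed to 243769.7 to 258157 in conditioned and 209837 to 281845 in unconditioned medium at 48 h, against 172290.5 to 351953 at time zero. Of 12 only Myl7 was called, lower in conditioned medium at 48 h. Of 5 tested leukocyte markers Cd74 fell in conditioned medium, with log2 changes of -5.20 at 24 h and -5.41 at 48 h against time zero, and Cd14 rose in unconditioned medium at 48 h (1.17). Cd74 was at the floor on 3 of the 12 arrays, so the size of its change depends on the floor. Between the media over both times 1 leukocyte marker was called, lower in conditioned medium, and no marker of the other lists was, against 0.92% of all probes. Of 3 tested epicardial markers Krt19, at the floor on 2 of the 12 arrays, rose in conditioned medium at 48 h (3.92 ± 0.98), and 0 of 2 tested Schwann cell markers were called. The part of these markers in the changes of Areg, Errfi1 and the ERK-responsive genes was not tested.

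**Figure D5:**
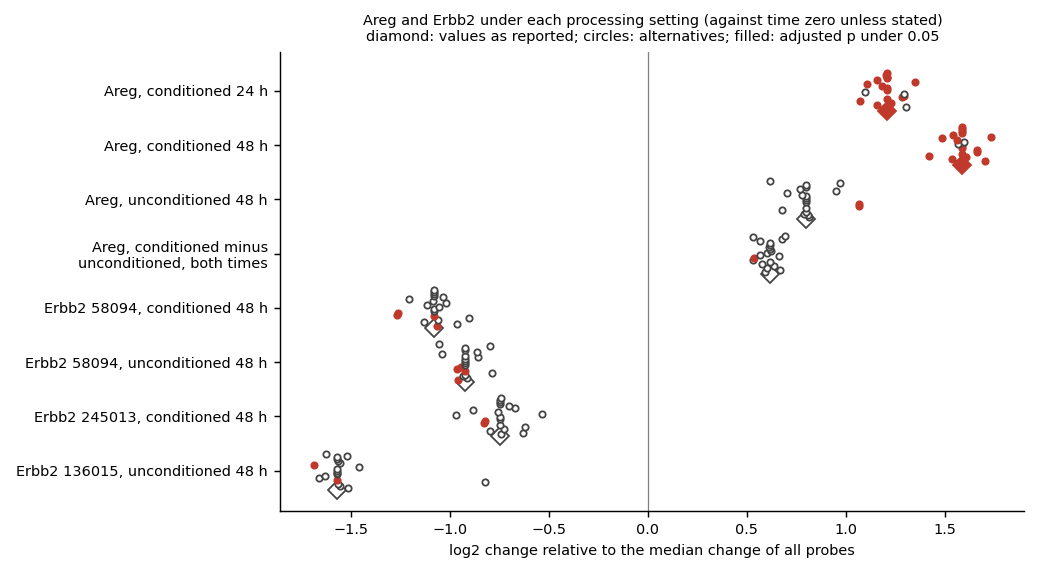
Log2 change of Areg and of Erbb2 probes under each processing setting, with the all-probe median subtracted. Diamonds are the values as reported and circles the alternatives, filled where the limma adjusted p was under 0.05; Areg in conditioned medium at 48 h keeps between 1.42 and 1.73 and passes in 18 of 20 alternatives, while Erbb2 probe 58094 stays below 0 in both media at 48 h and passes in 4 of 20 for each.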

How the data were processed

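Expression was measured in 18 samples on 1-colour arrays of 2 designs, 12 on the larger and 6 on the smaller, of which 33849 and 9906 probes had values. The values are probe intensities on a linear scale as deposited by the authors; scanner software, background correction and probe sequences are not given in the sources used here. Medians of the deposited intensities ran from 70.3 to 143.6 in the larger table. Array precision was limited by the number of arrays. No column belonged to another series (0 columns).

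Each array was scaled to its table's common median, set to a floor of 0.05 of that median and taken to log2. Probes whose mean log2 value lay above the 30th percentile were kept, 23694 in the larger table. A model with 1 mean per group was fitted to the larger table with limma 3.58.1 in R 4.3.3 (lmFit and eBayes, 7 residual and 10.4 prior degrees of freedom), with Benjamini-Hochberg adjustment over all kept probes and a threshold of 0.05. Figures and sequence searches used Python 3.11.15, pandas 2.3.3 and matplotlib 3.10.9, and the fit was tested on simulated data. Gene symbols came from the platform annotation through RefSeq's gene table. The smaller table was described and not tested. No 2 arrays of the larger table held identical values.

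Members and lists were chosen with earlier results of these data known. All members are reported. From each list and comparison with time zero, up to 3 called genes with the smallest p were named, and genes named outside that rule (Adam17, Adam10, Nrg4, Dcn, Lum, Pdgfra, Pik3cd and the marker genes) were added after their values were seen. The 3 genes most like each of 3 members were taken by Pearson correlation. Alternatives were quantile normalization, centring on kept probes, no filter or a 50th percentile filter, a higher floor (0.2 of the median), a pseudocount (0.5 of it) in place of a floor, and leaving out each array or the 3 arrays of narrow range.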

Additional observations from a re-analysis of the deposited data

Results flagged for a closer look

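Among 18 groups of 4 time zero arrays, 1 per member probe of the larger table, 2 held an array whose gap to the nearest other array exceeded Dixon's critical share of the group's range. Chance flags about 1 in 20 groups of normally distributed values, a rate that need not hold for intensities near the floor. For Egfr probe 314023 the gap was the whole range (ratio 1): time zero replicate 6 read 20.4 and the other 3 arrays were at the floor, and the probe did not pass the filter. With those 3 arrays at the floor any clear reading on the remaining array gives such a ratio, so this flag carries no weight. For Erbb4 probe 314058 the ratio was 0.98: time zero replicate 5, an array of narrow range, read 64.7 against 9.69 to 10.1 on the other 3.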

How the results depend on the processing

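No member probe reversed a called direction under any alternative. Centring on kept probes, and quantile normalization without the 3 arrays of narrow range, were chosen after seeing the data. The number of the 14 member probes called in conditioned medium against time zero at 24 h (1 as reported) was 0 with no filter (Areg 1.31, adjusted p = 0.0579), 2 without the 3 narrow arrays and 2 with quantile normalization besides, and 0 to 1 with each array left out in turn. At 48 h (1 as reported) it was 2 with quantile normalization, 2 with centring, 4 without the narrow arrays, 4 with quantile normalization besides, and 0 to 2 with each array left out, 2 being reached without time zero replicate 6. In unconditioned medium at 48 h (0 as reported) it was 2 under each of those 4 settings and 0 to 2 with each array left out, 2 being reached without time zero replicate 4. Over both times and at 24 h between the media, and in unconditioned medium at 24 h (0 as reported each), it was 1 under quantile normalization without the narrow arrays. The cause was not tested. Areg passed in conditioned medium in 17 of 20 alternatives at 24 h (1.07 to 1.35) and 18 of 20 at 48 h (1.42 to 1.73). Erbb2 probe 136015 gave no value under the 50th percentile filter.

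Counts over all probes moved more: called in conditioned medium were 751 probes at 24 h and 1532 at 48 h, against 386 and 948 with no filter, 1997 and 3085 with quantile normalization, and 2329 and 4106 without the narrow arrays. In unconditioned medium they were 193 and 686, against 64 and 315, 543 and 2343, and 639 and 1617 under the same settings. Between the media over both times they were 218, against 83, 921 and 1849. No paired analysis was possible because the replicate numbers follow accession order and carry no pairing.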
